A study of Mus musculus with 24 samples.

Results

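The genes described here are the enzymes of fatty acid oxidation, taken as every gene of the normalized table whose symbol starts with Acad, Acox, Acsl, Acaa, Acot, Cpt, Hadh, Ech, Etf or Decr. This rule took 50 of the 18132 genes and used no measured value. It follows the letters of the symbols, so it also takes in the acyl-CoA synthetases and thioesterases, which stand beside the oxidation spiral, and Etf1, a factor that ends protein synthesis. Of the 50 members, 37 were above background on at least 6 arrays and were tested, and 13 were too dim. Of these 37, 33 were above background on all 24 arrays. Hadha, the other subunit of the trifunctional protein, was not analysed here.

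Fatty acids are burned in mitochondria and, for very long or branched chains, in peroxisomes. A synthetase first joins the fatty acid to coenzyme A, the carnitine shuttle carries it across the inner mitochondrial membrane, and a repeated cycle of dehydrogenation, hydration, a second oxidation and thiolysis then shortens the chain. The electrons pass through the electron transfer flavoprotein to the respiratory chain, while thioesterases can undo the activation by releasing the free acid. In macrophages, IL-4 is known for a metabolism that leans on this pathway, and IFN-gamma is known as a stimulus of classical activation.

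The cells were macrophages differentiated in culture from bone marrow of female Balb/c mice, 8 to 10 weeks of age. For 24 h they received the cytokine IL-4, the cytokine IFN-gamma, the beta-adrenergic agonist isoproterenol, or media alone, and their total RNA was hybridised to Illumina MouseRef-8 v2.0 bead arrays. There were 6 arrays per group, as pairs from 3 numbered experiments, and each pair was averaged, so n = 3 experiments in each of the 4 groups. The labels give no dose of any activator, and they do not say whether the 2 arrays or the experiments came from separate animals, so the tests weigh differences against the spread among these experiments, part of which may be technical. In RNA of whole cultures, fewer cells that express a gene and less RNA per cell cannot be told apart.

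Of 10 macrophage markers, 9 were in the table and all 9 were above background on all 24 arrays. Their summed intensity was 66552 to 71464 with IL-4, 61147 to 66217 with IFN-gamma and 74254 to 77651 with isoproterenol, against 71691 to 75430 in media, so the sums with each cytokine lay below media. With IFN-gamma 2 of the 9 rose (Fcgr1 and Mertk) and 4 fell (Cd68, Cd14, Csf1r and Itgam). On average Cd68 was at 12161 with IFN-gamma against 22031 in media, Cd14 at 4738 against 8937 and Fcgr1 at 3075 against 610. With IL-4 3 rose (Csf1r, Adgre1 and Itgam) and 2 fell (Fcgr1 and Cd14, the latter to 3803). With isoproterenol 1 rose (Itgam, log2 fold change 0.38, adjusted p = 0.0109) and 0 fell. Defining markers of fibroblasts were near background throughout, with 3 of 5 above the limit on no array and a summed intensity of 671 to 721 with IL-4, 669.6 to 709.7 with IFN-gamma, 677 to 699 with isoproterenol and 673 to 695 in media. Of the granulocyte markers, 5 of 7 were in the table, and their sum was 1623 to 1954 with IL-4, 3915 to 5180 with IFN-gamma, 2009.98 to 2629.5 with isoproterenol and 1841 to 2654 in media. Most of that sum was S100a8, which IFN-gamma raised (log2 fold change 1.45), while Mpo and S100a9 fell. The 5 dendritic cell markers summed to 1416 to 1646 with IL-4, 1048 to 1247 with IFN-gamma, 798 to 838 with isoproterenol and 856 to 914 in media, where Batf3 rose with both cytokines and Clec9a with IFN-gamma, while Flt3, Zbtb46 and Xcr1 were too dim to test. The 4 T cell markers summed to 552 to 622 with IL-4, 593 to 659.8 with IFN-gamma, 565 to 602 with isoproterenol and 545 to 605 in media, with Lck higher under IFN-gamma and Cd3e and Cd3g too dim to test. Adipoq and Cfd were the 2 of 4 adipocyte markers tested, and neither was called against media. Adipoq passed the limit on 6 arrays with IL-4 and on 1 in media (log2 fold change 0.27, adjusted p = 0.0621). Of 4 B cell markers only Cd79b was tested, and it was lower with IFN-gamma (log2 fold change -0.24, adjusted p = 0.0206). Their part in the results was not tested. The second IFN-gamma array of experiment 1 stood apart, with a correlation of 0.984 with its partner against at least 0.997 for the other pairs, so results with IFN-gamma are also given without it.

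IFN-gamma changed more members than IL-4 or isoproterenol. Against media, 6 members rose and 13 fell of 37 tested, where a change means a Benjamini-Hochberg adjusted p below 0.05 in limma over all 10111 genes tested. Among all genes tested, IFN-gamma raised 17.3% and lowered 25.8%, 43.1% in either direction, so the 51.4% of members that changed lay close to the background of this comparison. The median log2 fold change was -0.07 over the members and -0.03 over all genes. In experiments 1 and 2 the IL-4, IFN-gamma and media arrays shared a slide, and there all 19 members that changed had the sign of the fitted value, as they did in experiment 3 except Acox3. The members that rose were 1 synthetase (Acsl1), 3 thioesterases (Acot7, Acot10, Acot8), Hadhb and Acadvl. Those that fell included Acot1, Acsl3, the short-chain and medium-chain dehydrogenases and the beta subunit of the electron transfer flavoprotein. Without the array that stood apart 19 members were called, 18 of them the same genes, where 43.5% of all genes tested changed. Of the 19 calls, 14 held under every alternative in which the gene was tested. Acox3 lost its call under 8 of 13 alternatives, Decr1 under 5 of 14, Acadvl under 3 of 14, Hadhb under 2 of 14 and Decr2 under 1 of 13. A fit of only the 2 groups compared called 15 of the 19, where 32% of all genes tested changed.

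**Figure D1:**
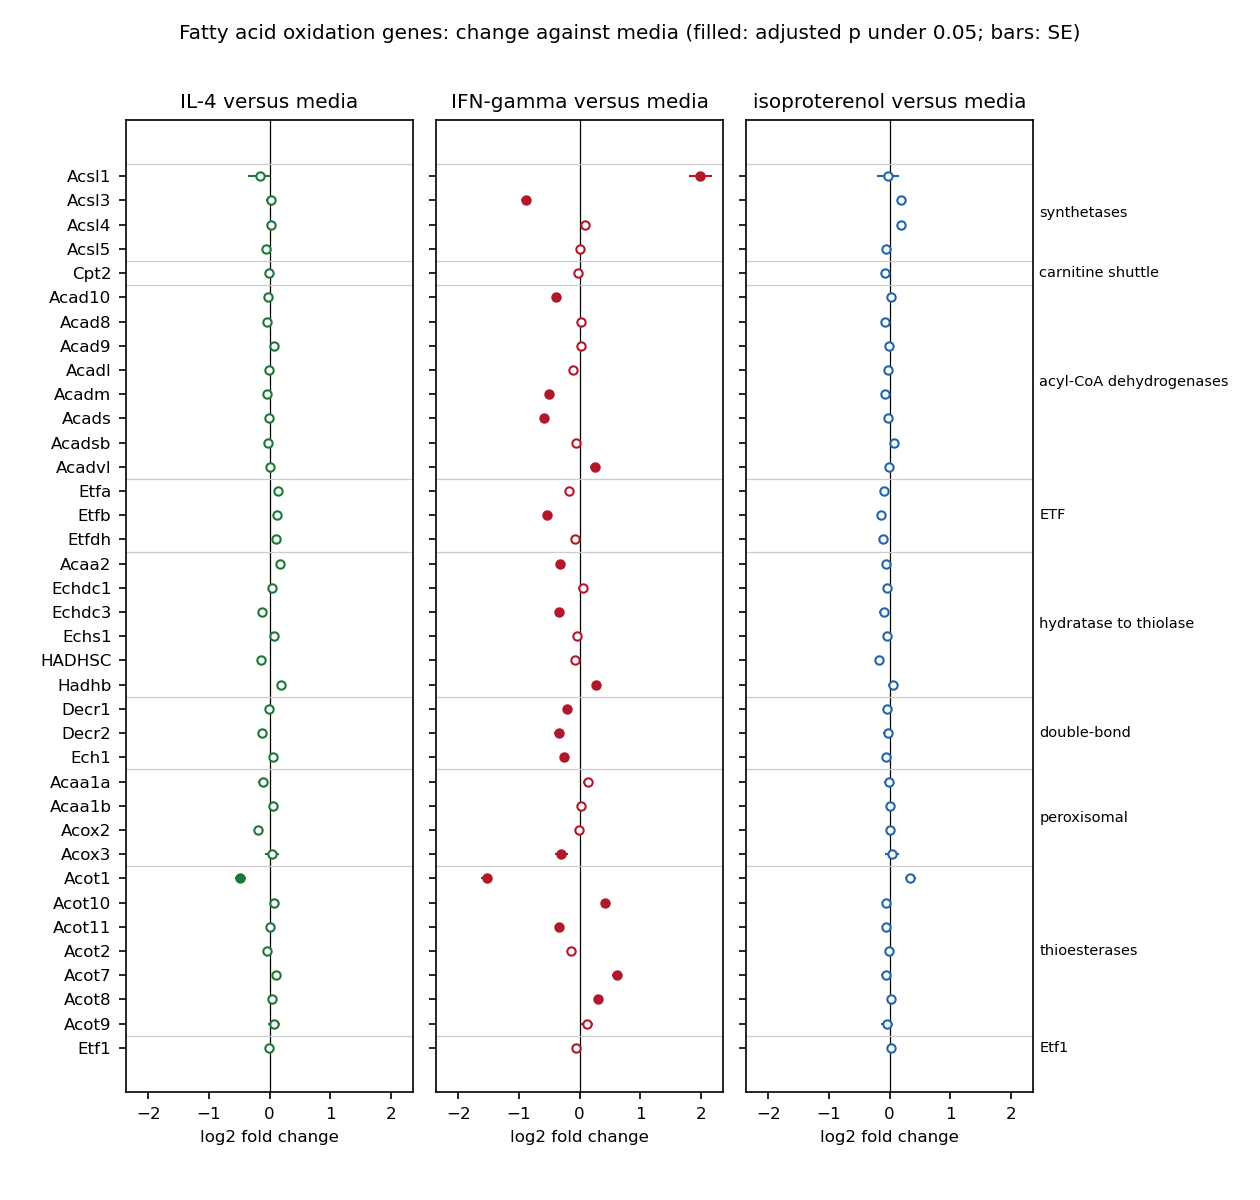
Log2 fold change against media (x axis, bars are standard errors, n = 3 experiments) of the 37 tested members, grouped by step of the pathway from top to bottom, with IL-4, IFN-gamma and isoproterenol from left to right; filled points passed an adjusted p under 0.05. The IFN-gamma panel has 19 filled points spread from -1.53 to 1.99, the IL-4 panel has 1 and the isoproterenol panel has 0. Among all genes tested, 43.1%, 7.77% and 1.28% passed for IFN-gamma, IL-4 and isoproterenol.

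**Figure D2:**
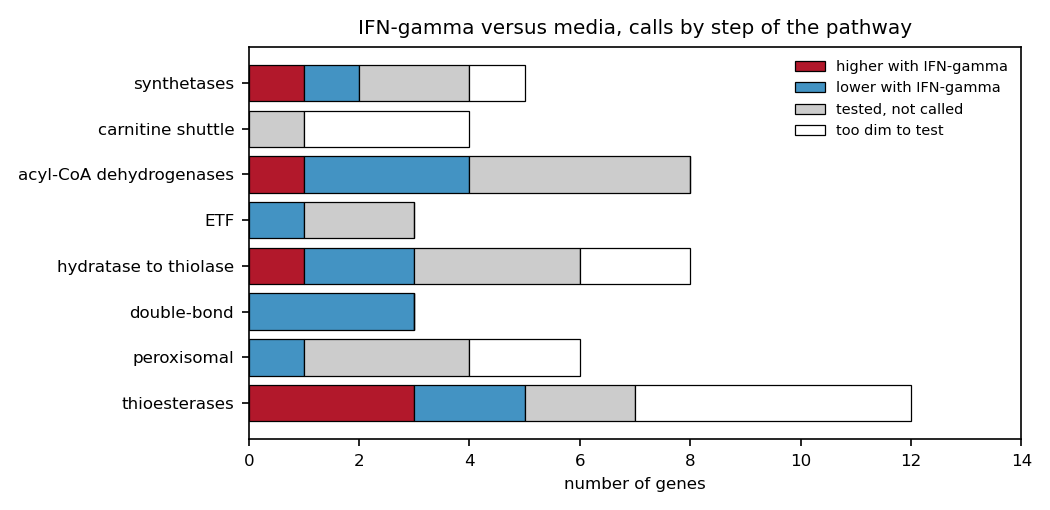
Number of members (x axis) at each step of the pathway that were higher or lower with IFN-gamma than in media, tested without a call, or too dim to test. Of the 4 carnitine shuttle genes, 3 were too dim, while all 8 acyl-CoA dehydrogenases were tested and 4 of them changed. Among all genes tested, 43.1% changed.

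The activation step was split between 2 synthetases that moved in opposite directions. Acsl1, a long-chain acyl-CoA synthetase of mitochondria and endoplasmic reticulum, had normalized intensities of 1116, 661 and 1319 in the 3 experiments with IFN-gamma, against 291, 258 and 262 in media. All IFN-gamma arrays lay above all media arrays, although they ran from 341 to 1892. Its log2 fold change was 1.99 ± 0.18 (SE), a 3.98-fold rise, with an adjusted p of 5.05e-06, and the difference was positive in all 3 experiments, at 1.67 and 1.63 within a slide and 2.69 in experiment 3. The lowest of these arrays, at 341, was the one that stood apart, its partner reached 1892, and without it the log2 fold change was 2.45 with an adjusted p of 1.34e-05. Acsl1 averaged 249 ± 9.70 with IL-4 and 267 ± 7.50 with isoproterenol, against 270.4 ± 17.7 in media (SD, n = 3 each), and neither difference passed the test.

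Acsl3, the synthetase known from lipid droplets, went the other way. It measured 175, 173 and 170.5 with IFN-gamma, against 242, 273 and 269 in media, and the arrays of these groups did not overlap. The log2 fold change was -0.89 ± 0.07 (SE, adjusted p = 1.84e-06), and over 13 alternatives it ran from -1.18 to -0.59. With isoproterenol Acsl3 measured 281, 306 and 279, which was above media in each experiment with a log2 fold change of 0.19 and an adjusted p of 0.315. Acsl4, which prefers arachidonic acid, and Acsl5 had log2 fold changes of 0.10 and 0.01 with IFN-gamma and were not called in any comparison with media. Acsl4 with isoproterenol lay between 219.6 and 230.6, above all media arrays at 200.7 to 217.8, a log2 difference of 0.19 ± 0.05 (SE) with an adjusted p of 0.122. Acsl6, the form known from brain, was above background on 2 of 24 arrays.

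The bases upstream of the annotated start are shown for Acsl1 and Acot1, the members with the largest rise and fall under IFN-gamma, and for Hadhb. Among called members with a promoter window, Hadhb alone matched one of the 5 motifs searched. The called members Acaa2 and Decr1 had no window. The bases are RefSeq sequence of GRCm38.p6, each on the plus strand, read toward the start: chr8:46470787-46471036 for the first of 2 Acsl1 starts, chr12:84009252-84009501 for Acot1 and chr5:30155003-30155252 for Hadhb. Capitals mark the match to the GAS element, the letters TTCNNNGAA, which STAT factors are known to bind.
Acsl1: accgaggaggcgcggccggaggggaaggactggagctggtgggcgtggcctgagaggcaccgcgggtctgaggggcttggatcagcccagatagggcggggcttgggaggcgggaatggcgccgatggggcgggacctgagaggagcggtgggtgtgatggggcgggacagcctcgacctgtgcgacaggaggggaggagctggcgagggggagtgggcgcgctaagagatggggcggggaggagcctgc
Acot1: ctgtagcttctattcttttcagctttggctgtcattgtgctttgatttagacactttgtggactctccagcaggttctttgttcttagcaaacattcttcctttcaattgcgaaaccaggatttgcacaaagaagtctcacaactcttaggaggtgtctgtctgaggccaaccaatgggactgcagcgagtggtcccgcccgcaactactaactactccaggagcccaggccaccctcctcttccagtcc
Hadhb: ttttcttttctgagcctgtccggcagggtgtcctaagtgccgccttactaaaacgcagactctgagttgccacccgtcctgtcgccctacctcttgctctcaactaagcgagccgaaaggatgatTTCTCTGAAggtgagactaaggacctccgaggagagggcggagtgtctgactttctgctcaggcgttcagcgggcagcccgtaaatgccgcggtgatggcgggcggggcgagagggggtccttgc
The Acsl1 stretch held 72% G and C and 20 CpG dinucleotides, at the 93.1 percentile of G and C content among all promoter windows. The stretch before the second Acsl1 start, not printed, held 48.4% and 2 CpG, at the 35.1 percentile. The Acot1 stretch held 48.8% and 4 CpG, and the Hadhb stretch 58.8% and 17 CpG.

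Windows of 250 bases before to 50 after the start were found for 42 member genes, 50 windows in all, and both strands were searched. Acaa2, Acad9, Acot6, Cpt1b, Decr1 and Etf1 were among those not matched. GAS letters were in the windows of 2 genes, Hadhb at position -125 from the start and Cpt2 at -200, which is 4% of the member windows against 8.3% of all 32851 windows. The ERR element TCAAGGTCA, read by estrogen-related receptors, was in the window of Acsl6 alone, on the minus strand, and in 0.423% of all windows. The PPAR response element, the cAMP response element TGACGTCA and the interferon-stimulated response element were in 0 member windows, against 0.0396%, 1.79% and 3.44% of all windows. A match describes letters only.

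**Figure D3:**
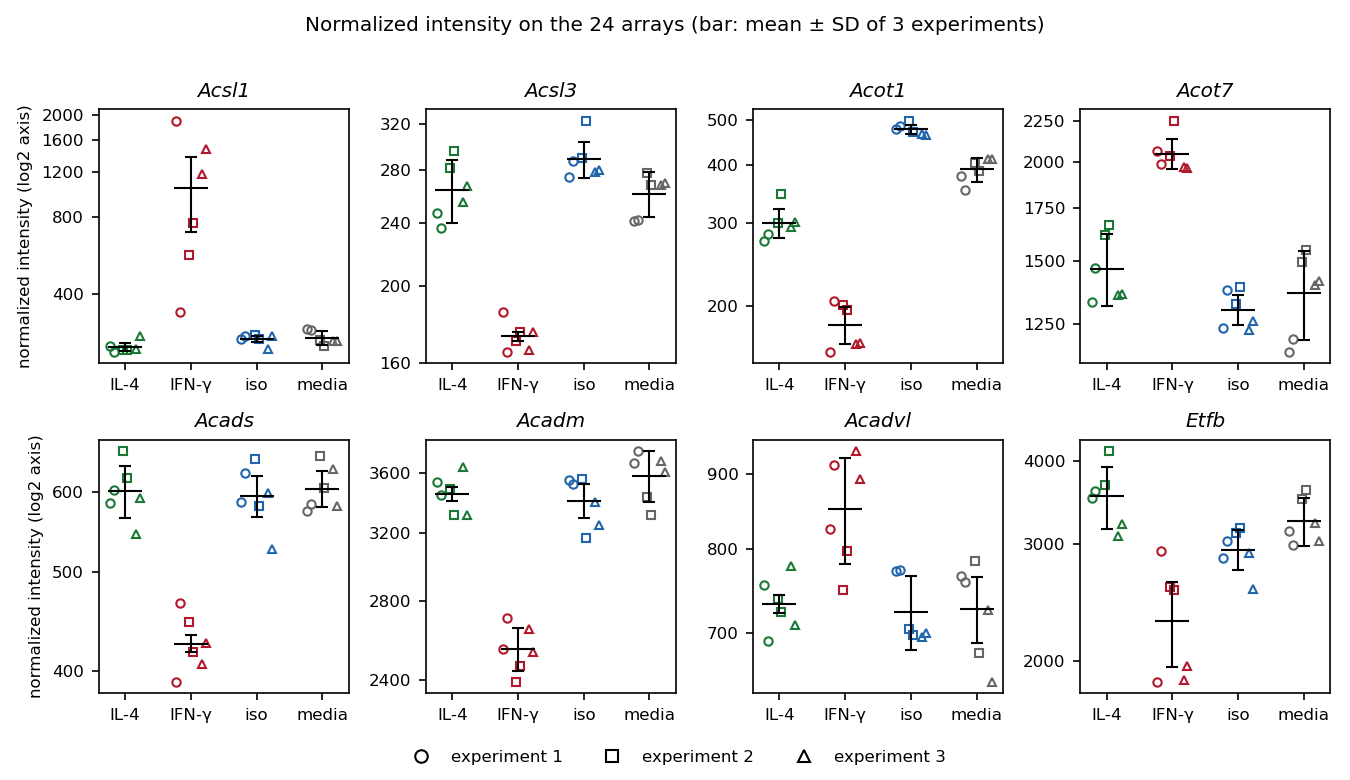
Normalized intensity (y axis, log2 scale, each panel with its own range) of 8 members on the 24 arrays in the order IL-4, IFN-gamma, isoproterenol and media; symbols mark the experiments and bars the mean ± SD of 3 experiments. The IFN-gamma arrays stand clear of the media arrays in every panel except that of Acadvl, and Acot1 is also lower with IL-4 than in media. All 8 members shown were called with IFN-gamma, so the panels do not represent the 37 tested members. Among all genes tested, 43.1% changed with IFN-gamma, and how many had no overlap between arrays was not counted.

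The carnitine shuttle gave little signal at its entry. Cpt1a, the liver form of the outer-membrane transferase that limits the rate of entry and the gene given as a marker of this set together with Acadl, measured 134, 139 and 136 with IL-4, 131, 139.9 and 139 with IFN-gamma and 140.1, 144 and 136 with isoproterenol, against 149, 137 and 133 in media. These levels are at the background mode of 137, and only 2 of 24 arrays passed the limit of 149, so no difference in Cpt1a could be detected by this probe. The muscle form Cpt1b passed it on 3 arrays and the brain form Cpt1c on 1. Cpt2, the inner-membrane transferase that hands the chain back to coenzyme A, was above background on all 24 arrays and averaged 636 ± 9.85 with IL-4, 628 ± 13.2 with IFN-gamma, 611 ± 25.7 with isoproterenol and 638 ± 9.84 in media. Its log2 differences from media were 0.00, -0.03 and -0.07 for IL-4, IFN-gamma and isoproterenol. The 95% interval that reached farthest from 0, for isoproterenol, ran from -0.19 to 0.05.

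**Figure D4:**
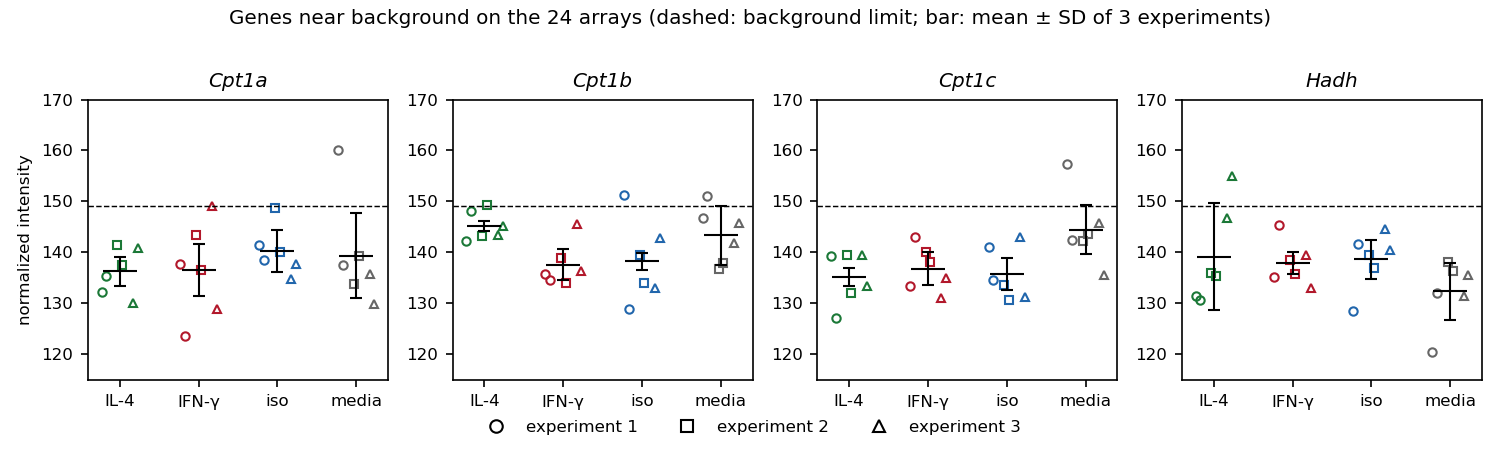
Normalized intensity (y axis) of Cpt1a, Cpt1b, Cpt1c and Hadh on the 24 arrays in the order IL-4, IFN-gamma, isoproterenol and media; the dashed line is the background limit of 149, symbols mark the experiments and bars the mean ± SD of 3 experiments. Nearly all points lie under the line, with Cpt1a above it on 2 arrays and Cpt1c on 1.

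The acyl-CoA dehydrogenases, which take the first electrons from chains of different length, were all above background. With IFN-gamma 3 of the 8 fell and 1 rose, where 25.8% of all genes tested fell and 17.3% rose. Acads, the short-chain enzyme, measured 429, 432 and 416 with IFN-gamma, against 579, 628 and 606 in media. Acadm, the medium-chain enzyme, measured 2629.9, 2430.1 and 2594 with IFN-gamma, against 3708, 3371 and 3643 in media. For both genes the arrays did not overlap, and the log2 fold changes were -0.59 ± 0.06 and -0.50 ± 0.05 (SE), with adjusted p-values of 6.59e-06 and 1.34e-05. Acad10, whose role is less well known, measured 195, 181 and 183 with IFN-gamma, against 232, 213 and 223 in media. The log2 difference was -0.39 ± 0.06 (SE, adjusted p = 1.74e-04), with no overlap between arrays. These levels lay not far above the limit of 149, and over 13 alternatives the difference ran from -0.52 to -0.26.

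Acadvl, the very-long-chain enzyme of the inner membrane, was the dehydrogenase that rose. It measured 869.5, 773 and 913 with IFN-gamma, against 763, 731 and 687 in media, and single arrays of the groups overlapped. The log2 fold change was 0.25 ± 0.07 (SE, adjusted p = 0.0158). Its call was lost under 3 alternatives, among them without experiment 1 (adjusted p = 0.068) and without experiment 3 (0.15, adjusted p = 0.171). Acadl, the long-chain enzyme, measured 290, 308 and 290 with IL-4, 282, 287 and 278 with IFN-gamma and 295, 284 and 299 with isoproterenol, against 296, 297 and 301 in media. It was above background on all 24 arrays. The log2 fold changes of -0.02, -0.10 and -0.03 were not called, and the 95% interval that reached farthest from 0 ran from -0.23 to 0.02 for IFN-gamma. Acad8 and Acadsb, which act on branched chains from amino acids, and Acad9, which also helps to assemble respiratory complex I, had log2 fold changes between -0.07 and 0.03 with IFN-gamma and were not called.

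The electron transfer flavoprotein, which takes the electrons from these enzymes, fell in its beta subunit. Etfb measured 2393, 2574 and 1919 with IFN-gamma, against 3067, 3563 and 3129 in media. The arrays did not overlap, and the log2 fold change was -0.54 ± 0.07 (SE, adjusted p = 4.76e-05). The alpha subunit Etfa had a log2 fold change of -0.17 (adjusted p = 0.0715), and Etfdh, the oxidoreductase that passes the electrons on to ubiquinone, one of -0.07 (adjusted p = 0.404). With IL-4, Etfb averaged 3540.2 ± 381, against 3253 ± 270.1 in media (SD, n = 3 each), and Etfa and Etfdh were likewise above media on average, by 0.12, 0.14 and 0.11 on the log2 scale, without a call.

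Later steps of the mitochondrial cycle moved both ways with IFN-gamma. Hadhb, the thiolase-bearing subunit of the trifunctional protein, measured 1069, 943 and 1001 with IFN-gamma, against 791, 827 and 908 in media. Its arrays overlapped, and its log2 fold change was 0.28 ± 0.07 (SE, adjusted p = 0.007). The call was lost under 2 alternatives, among them without experiment 1 (0.18, adjusted p = 0.133). Acaa2, the mitochondrial thiolase for medium and long chains, fell by 0.33 on the log2 scale (adjusted p = 0.0022), with averages of 628 ± 3.66 with IFN-gamma and 768 ± 9.81 in media (SD, n = 3 each). Echdc3, a hydratase-like protein, fell by 0.34 (adjusted p = 0.00163). Its log2 fold change ran from -0.48 to -0.21 over 14 alternatives. Echs1, the short-chain enoyl-CoA hydratase, had a log2 fold change of -0.04 and was not called. The hydroxyacyl-CoA dehydrogenase Hadh is listed under its current symbol, above background on 1 of 24 arrays, and under its old name HADHSC, above background on 15. The 2 entries averaged 137.0 and 151.7 over all arrays. Both averages lay near background, where the limit was 149, so little can be said of the gene's level.

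Where 25.8% of all genes tested fell with IFN-gamma, the 3 members that deal with double bonds in unsaturated chains did so, by small amounts. The enoyl-CoA isomerases Eci1 and Eci2, which also act on double bonds but lie outside the symbol rule and were named after their values were seen, did not follow them. Eci1 rose by 0.18 (log2 fold change, adjusted p = 0.0106), and Eci2 had a value of 0.15 (adjusted p = 0.278). Decr2, the peroxisomal dienoyl-CoA reductase, fell by 0.34 on the log2 scale (adjusted p = 0.00372), and Ech1, a dienoyl-CoA isomerase, by 0.26 (adjusted p = 0.00226). Decr1, the mitochondrial reductase, fell by 0.21 (adjusted p = 0.0184). Arrays of Decr1 and Ech1 overlapped between the groups, while those of Decr2 did not. Decr2 lost its call without experiment 1 (-0.22, adjusted p = 0.0752). Decr1 lost its call under 5 alternatives, among them without experiment 2 (-0.17, adjusted p = 0.126) and without experiment 3 (-0.20, adjusted p = 0.0901).

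Of the 4 tested oxidases and thiolases of peroxisomes, Acox3 had the only call with IFN-gamma, where 43.1% of all genes tested changed. Its adjusted p was the highest of all 19 members called. This oxidase of branched chains measured 527, 456 and 669.9 with IFN-gamma, against 763, 547 and 666 in media, so experiment 3 showed no fall. The log2 fold change of -0.30 ± 0.11 (SE) had an adjusted p of 0.0483, which became 0.125 (-0.21) without the array that stood apart, 0.451 (-0.14) without experiment 1 and 0.119 (-0.31) without experiment 2. The peroxisomal thiolase Acaa1a had a log2 fold change of 0.13 with IFN-gamma (adjusted p = 0.19), and its near copy Acaa1b was above background on 15 arrays.

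The thioesterases moved both ways, with 3 higher and 2 lower of 7 tested, where 17.3% of all genes tested rose and 25.8% fell. Acot1, the cytosolic long-chain thioesterase, measured 182, 198 and 165 with IFN-gamma, against 367, 396 and 412 in media. The arrays were far apart, at 159 to 205 and 354 to 412, and the log2 fold change was -1.53 ± 0.09 (SE), a 2.90-fold fall, with an adjusted p of 9.6e-08. The IFN-gamma arrays lay not far above the limit of 149, and over 13 alternatives the log2 fold change ran from -1.91 to -1.11. Acot11, known from brown fat, fell by 0.34 on the log2 scale (adjusted p = 3.11e-04). Its log2 fold change ran from -0.46 to -0.22 over 13 alternatives. Acot2, the mitochondrial neighbour of Acot1 and close to it in sequence, had a log2 fold change of -0.14 (adjusted p = 0.0758). The probe behind Acot1 is not named in the files, and signal from a near-identical copy in its cluster was not tested. Acot3, Acot4, Acot5 and Acot6 of that cluster and Acot12 were each above background on at most 1 of 24 arrays.

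Acot7, a cytosolic thioesterase that can release arachidonic acid, measured 2026, 2145 and 1971 with IFN-gamma, against 1174, 1522 and 1406 in media, with no overlap between arrays. Its log2 fold change was 0.62 ± 0.08 (SE, adjusted p = 5.13e-05). Acot10, a mitochondrial enzyme almost identical to Acot9, measured 893, 877 and 809 with IFN-gamma, against 620.02, 673 and 688 in media. Acot8, the peroxisomal enzyme, measured 863, 785 and 861 with IFN-gamma, against 674, 671 and 720.3 in media. Neither gene's arrays overlapped, and the log2 fold changes were 0.42 ± 0.06 and 0.31 ± 0.06 (SE), with adjusted p-values of 2.44e-04 and 0.00106. Acot9 had a log2 fold change of 0.13 and was not called.

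IL-4 against media left the set almost without calls. By limma, 0 members rose and 1 fell of 37, where 4.03% of all genes tested rose, 3.75% fell and 7.77% changed in either direction, and at an unadjusted p under 0.05 there were 2 higher and 2 lower members. The member that fell was Acot1, at 280, 324 and 299 with IL-4, against 367, 396 and 412 in media. Its arrays did not overlap, and the log2 fold change was -0.48 ± 0.09 (SE, adjusted p = 0.00576), with an adjusted p of 0.0773 without experiment 1. In experiments 1 and 2, where both groups shared a slide, the difference was -0.50 and -0.37. Hadhb and Acaa2 had the largest positive values, 0.19 ± 0.07 (SE, adjusted p = 0.143) and 0.17 ± 0.07 (SE, adjusted p = 0.177). For Hadhb these were 948, 963 and 936 with IL-4, against 791, 827 and 908 in media, above media in each experiment. The median log2 fold change of the members was 0.01, against -0.01 over all genes.

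Isoproterenol against media gave 0 calls among the 37 members by limma, where 1.01% of all genes tested rose, 0.267% fell and 1.28% changed in either direction. At an unadjusted p under 0.05, 3 members were higher (Acot1, Acsl4, Acsl3) and 2 were lower (HADHSC, Etfb). Acot1 measured 483, 485 and 466 with isoproterenol, against 367, 396 and 412 in media, and its arrays did not overlap. Its log2 fold change of 0.34 ± 0.09 (SE) had an adjusted p of 0.109. It was called in both fits on single arrays, with an adjusted p of 0.0329 with the experiment and activator as a random block and of 0.0101 with slide as a block (0.51). These groups shared a slide in experiment 1 alone, where the difference was 0.47. The members' log2 fold changes lay between -0.17 and 0.34, with a median of -0.03 against 0.00 over all genes.

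Set against IFN-gamma, IL-4 cultures were higher in 15 members and lower in 6, where 25.3% of all genes tested were higher, 18.6% lower and 43.9% changed. This comparison shares the IFN-gamma samples with the one above. The largest log2 fold changes were those of Acot1 at 1.05 ± 0.09, Acsl3 at 0.90 ± 0.07 and Etfb at 0.66 ± 0.07 in the upward direction and of Acsl1 at -2.16 ± 0.18 in the downward one (SE). All 3 electron transfer flavoprotein genes were higher with IL-4, including Etfa (0.32, adjusted p = 0.00376), at 3027, 3513 and 2952 with IL-4 against 2545, 2662 and 2452 with IFN-gamma, and Etfdh (0.18, adjusted p = 0.0416). The double-bond members Decr1, Decr2 and Ech1 were higher as well, by 0.21 to 0.31, while Eci1 and Eci2 had log2 fold changes of -0.04 and -0.20 without a call. The peroxisomal thiolase Acaa1a was lower with IL-4 (-0.25, adjusted p = 0.0203), and its arrays did not overlap. Without the array that stood apart, 19 members were called, where 43.4% of all genes tested changed.

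Isoproterenol cultures differed from IFN-gamma cultures in 12 members that were higher and 6 that were lower, where 26.8% of all genes tested were higher, 19.1% lower and 45.9% changed. Acot1 was higher by 1.88 ± 0.09 and Acsl3 by 1.08 ± 0.07, and Acsl1 was lower, at -2.02 ± 0.18 (log2 fold change, SE). Without the array that stood apart, 17 members were called, where 44.7% of all genes tested changed. Against IL-4, isoproterenol had 1 higher and 1 lower member, where 6.46% of all genes tested were higher, 4.57% lower and 11.0% changed. Acot1 was higher, at 483, 485 and 466 with isoproterenol, against 280, 324 and 299 with IL-4, a log2 difference of 0.83 ± 0.09 (SE, adjusted p = 1.08e-04) with no overlap between arrays. Within a slide, in experiments 1 and 3, it was 0.97 and 0.79. Etfb was lower, at 2944, 3144 and 2738 with isoproterenol, against 3561, 3910 and 3150 with IL-4, a log2 difference of -0.27 ± 0.07 (SE, adjusted p = 0.0226), and its call was lost without the IFN-gamma array that stood apart, without experiment 1, without experiment 2, without the experiment term and with slide and experiment as blocks. Under the slide block Echs1 was called instead (-0.15, adjusted p = 0.0473). Etfa and Etfdh had values of -0.23 (adjusted p = 0.0675) and -0.21 (adjusted p = 0.0657) in the same comparison.

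Acot1 was thus the member with calls in most comparisons. Its level was 301 ± 22.0 with IL-4, 182 ± 16.3 with IFN-gamma and 478 ± 10.2 with isoproterenol, against 392 ± 23.0 in media (SD, n = 3 each). From highest to lowest the groups ran isoproterenol, media, IL-4, IFN-gamma. Neighbours in this order had no overlap between arrays, and the difference between isoproterenol and media was the only one of the 6 that missed the test.

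Other genes of fatty acid transport, oxidation and its control were followed in a list of 35, of which 33 were in the table and 22 were tested. With IFN-gamma 4 of the 22 rose and 8 fell, which is 18.2% and 36.4%, where 17.3% and 25.8% of all genes tested did. With IL-4 3 rose and 0 fell by limma, which is 13.6% and 0%, where 4.03% and 3.75% of all genes tested did, and at an unadjusted p under 0.05 there were 7 higher and 2 lower. With isoproterenol 0 changed by limma, where 1.28% of all genes tested did, and 1 was higher and 0 lower at an unadjusted p under 0.05. Ppargc1b, a coactivator of mitochondrial genes, rose with both cytokines, averaging 372 with IL-4 and 513 with IFN-gamma, against 222 in media, which gave log2 fold changes of 0.97 ± 0.16 (SE, adjusted p = 0.00316) and 1.45 ± 0.16 (SE, adjusted p = 2.15e-05). Esrra, the nuclear receptor it works with, rose with IFN-gamma by 0.45 (adjusted p = 1.2e-04). With IL-4 its log2 fold change was 0.22 (adjusted p = 0.0509), positive in all 3 experiments but not called. Pparg, a nuclear receptor that responds to fatty acids, went in opposite directions, with averages of 939 with IL-4 and 289 with IFN-gamma, against 667 in media, and log2 fold changes of 0.55 ± 0.11 (SE, adjusted p = 0.00883) and -1.44 ± 0.11 (SE, adjusted p = 8.82e-07).

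Abcd2, a peroxisomal transporter of very-long-chain acyl-CoA, had the same pattern as Pparg, at 0.91 with IL-4 (adjusted p = 2.99e-04) and -0.60 with IFN-gamma (adjusted p = 7.29e-04). The fatty acid transport protein Slc27a1 fell with IFN-gamma by 0.87 on the log2 scale (adjusted p = 1.65e-06). The carnitine-acylcarnitine carrier Slc25a20 averaged 577 with IL-4, 580.1 with IFN-gamma and 572 with isoproterenol, against 582 in media, and was not called. The receptor Ppara was above background on 0 of 24 arrays, as was Pdk4, a kinase that spares glucose when fat is burned. Between isoproterenol and IL-4, 2 of the 22 were higher and 5 lower, where 6.46% of all genes tested were higher and 4.57% lower. The lower ones were led by Ppargc1b at -1.08 and Abcd2 at -1.03, and the higher ones were Slc27a1 at 0.43 and Mcee, an epimerase of propionate breakdown, at 0.28.

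**Figure D5:**
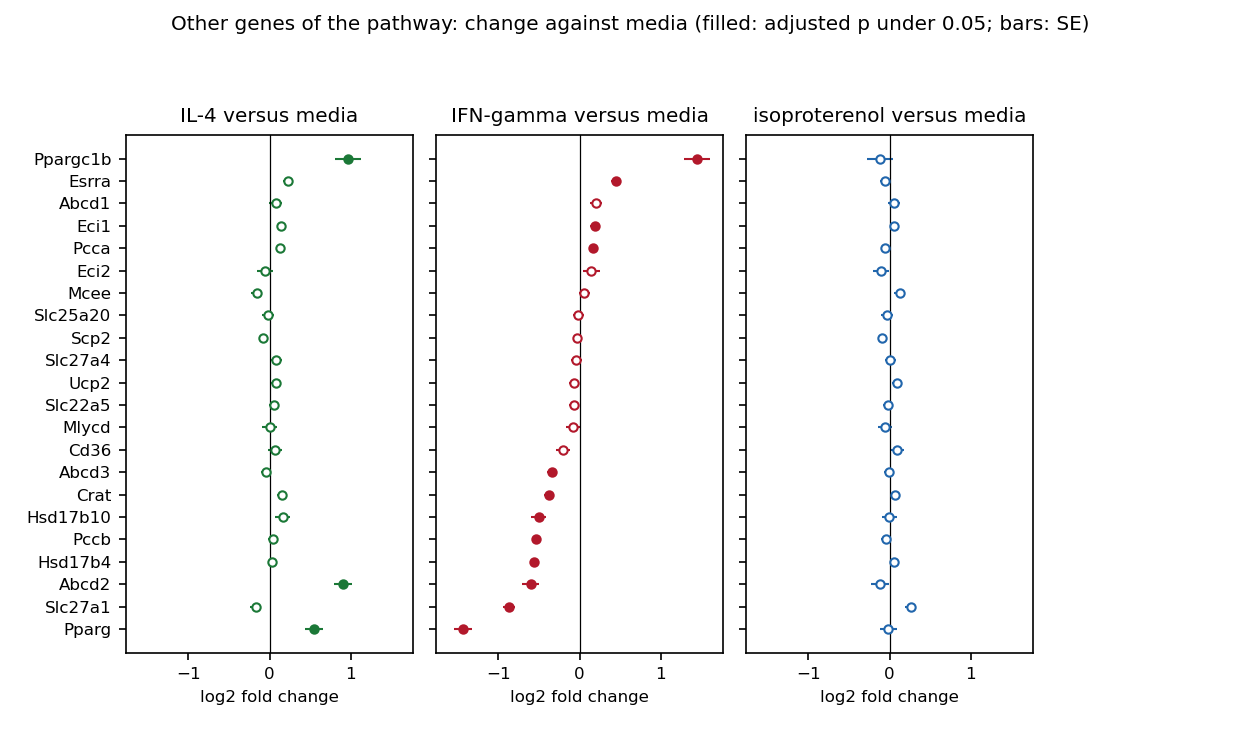
Log2 fold change against media (x axis, bars are standard errors, n = 3 experiments) of the 22 tested other genes of the pathway, with IL-4, IFN-gamma and isoproterenol from left to right; filled points passed an adjusted p under 0.05. Ppargc1b is to the right of 0 with both cytokines, while Pparg and Abcd2 are to the right with IL-4 and to the left with IFN-gamma.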

How the data were processed

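GenomeStudio is named in the submitters' processing notes, without a version. The authors deposited linear probe intensities and a table of normalized intensities for 18132 genes, which was used. Sorted values differed by a coefficient of variation under 1% between arrays in 98.91% of ranks, and array medians were 150.02 to 150.38, so each value is relative to the other genes. Of the 50 members, 28 could be matched to 1 probe of the other table within 0.02 (log2), 18 of them tested.

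The deposited intensities were background-corrected with normexp (limma 3.58.1, R 4.3.3, offset 50), taken to the log2 scale and averaged over the 2 arrays of an experiment and activator, giving 12 values. Printed intensities are not background-corrected, so fold changes can exceed their ratios. Genes above 149, the background mode of 137 plus 1.645 SD (0.0727, log2), on at least 6 arrays were tested, 10111 in all. A linear model of group and experiment with empirical Bayes gave 6 comparisons, with Benjamini-Hochberg adjustment over all genes tested, two-sided, called at an adjusted p under 0.05. The analysis was tested on simulated data.

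The labels number the experiments. Across the 18 pairs of groups in 1 experiment, deviations from the group means correlated at 0.027 to 0.775 (median 0.397, 16 pairs over 0.1). Across the 36 pairs from different experiments they correlated at -0.751 to 0.513 (median -0.226, 7 pairs over 0.1). Deviations cancel within a group, so these ranges depend on each other. Experiment was a term of the model. Per the file headers, experiment 1 was on slide 1. Experiment 2 was on slide 2 but for its isoproterenol arrays, which shared slide 3 with media of experiment 3, and slide 4 carried what remained.

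An item among the members is not reported here. The members, lists and tests were chosen with earlier results of these data known. Values by experiment are given for Cpt1a, Acadl and the 6 called members (or fewer) with the largest changes in each direction against media, and other called members by their fold change. Values by experiment of Acox3, of Hadhb with IL-4, of Acsl3 and Acot1 with isoproterenol and of comparisons between activators were added after they were seen. Alternatives covered the background step, the limit, single arrays, probes, slide and experiment blocks, the groups in the fit, the empirical Bayes step and left-out arrays and experiments.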

Additional observations from a re-analysis of the deposited data

Results flagged for a closer look

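Within the 6 arrays of a group, 6 of 84 sets of values held an array far from the others, where chance gives about 1 in 20, or 4.2, for independent arrays. These arrays were pairs from 3 experiments, so that figure need not hold here. The measure was the gap to the nearest other array as a share of the group's range (Dixon's test at its 95% critical value). Acot7 with IFN-gamma reached 2253 on array 2 of experiment 2, with the others at 1968 to 2063 (share 0.666), all above media. Acsl1 with IL-4 was 275 on array 2 of experiment 3, with the others at 239 to 251 (0.658). With isoproterenol, Acsl1 was low on array 1 of experiment 3, at 243 against 267 to 278 (0.678), and Acsl3 was high on array 2 of experiment 2, at 323 against 275 to 289.7 (0.688). In media, Cpt1a was 160.1 on array 1 of experiment 1, with the others at 129.9 to 139 (0.688), and Echdc3 was 173 on array 2 of experiment 3, with the others at 199.97 to 216 (0.632).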

How the results depend on the processing

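Counts of changed members were within 1.5 times of those reported in 69 of 84 recalculations. On the 18 tested members that matched a single probe, fewer were tested and 7 changed with IFN-gamma, 0 with IL-4 (against media), 7 between IL-4 and IFN-gamma, 6 between isoproterenol and IFN-gamma and 0 between isoproterenol and IL-4. Of all 6966 genes tested that way, 39.4%, 6.88%, 39.7%, 41.9% and 9.89% changed in these comparisons, in the same order. For isoproterenol against IL-4 the count of 2 was 4 with no background step, 7 on single arrays with experiment and activator as a random block, and 1 without the array that stood apart. In the same order, 11.4%, 14.8% and 9.69% of all genes tested changed. With slide and experiment as blocks, IL-4 against media gave 2, Etfa (0.22) joining Acot1, and isoproterenol against media gave 1, as it did on single arrays, while isoproterenol against IL-4 kept a count of 2 with Echs1 in place of Etfb. With these blocks 9.69%, 1.42% and 13.3% of all genes tested changed, in the same order. On single arrays 2.82% changed for isoproterenol against media. The cause of these shifts was not tested.

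With no replicate block, that is without the experiment term, 18 members changed with IFN-gamma and 1 between isoproterenol and IL-4, Etfb being lost (1 in place of 2), and the other comparisons stayed within 1.5 times. Of all genes tested, 36.3% then changed with IFN-gamma and 6.53% between isoproterenol and IL-4. Leaving out 1 experiment gave 15 to 17 members for IFN-gamma against media, 0 to 1 for IL-4, 0 to 0 for isoproterenol, 15 to 17 for IL-4 against IFN-gamma, 13 to 14 for isoproterenol against IFN-gamma and 1 to 2 for isoproterenol against IL-4. In the same order, 31.9% to 36.9%, 3.54% to 4.62%, 0.119% to 0.376%, 32.8% to 36.4%, 35.4% to 39.8% and 5.13% to 6.93% of all genes tested changed. Acadl, not called, turned its sign with IL-4 (0.0047 with the slide block, 0.0115 without experiment 3) and with isoproterenol (0.0359 with the slide block).

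Limits: n is 3 experiments. Members near background, among them Cpt1a and most Acot genes of the chromosome 12 cluster, could not be compared, and a value there says nothing of the gene's level below the limit. The intensities were made relative to all genes by the authors, so a change shared by most genes would not be seen. Array probes can share signal between near-identical copies (Acot1 and its cluster, Acot9 and Acot10, Acaa1a and Acaa1b). No protein or flux was measured.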
